A study of Canis lupus familiaris with 36 samples.

Results

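Gene expression in CLBL-1 cells incubated for 48 h with 1 µM Ibrutinib (Ibr) was compared with that of cells incubated for 48 h with the solvent DMSO, in 3 libraries of each, which are 6 of the 36 libraries of the series. CLBL-1 is a cell line from a dog with diffuse large B-cell lymphoma. The Ibr library and the DMSO library of each pair came from cells of the same passage, with the replicate number standing for the passage, and the comparison was paired by passage. Control cells received DMSO at the concentration of the combined treatment of the same study, Ibr with 5 µM AS-605240 (AS), an inhibitor of phosphoinositide 3-kinase gamma. The study does not give the DMSO concentration of cells with Ibr alone. If it was lower, solvent and drug cannot be told apart in this comparison. The other libraries are DMSO, Ibr, AS and Ibr + AS at 24 h and 72 h, and AS and Ibr + AS at 48 h, with 3 passages in each of the 12 groups. All libraries stem from 1 cell line, so p-values do not cover differences between lines or dogs. They measure the spread left after group and passage were fitted, estimated over 35 libraries of the 12 groups.

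Ibrutinib binds covalently to Bruton's tyrosine kinase (BTK), a kinase that passes the signal of the B-cell receptor on to phospholipase C gamma, calcium and the NF-kB, NFAT and ERK pathways. Phosphoinositide 3-kinase acts beside it, since BTK is recruited to its lipid product at the membrane, and AKT downstream of this kinase keeps FOXO transcription factors out of the nucleus. Immediate early genes such as EGR1 respond to ERK within a short time of receptor signalling, and FBXO32 is a classic target of FOXO factors.

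The authors counted between 11859040 and 13043278 reads on genes in the DMSO libraries and between 10442839 and 11377939 in the Ibr libraries, so that the groups did not overlap in depth. A count of 3 reads corresponded to 0.232 CPM (read counts scaled to the normalised library size) in the DMSO libraries and to 0.279 CPM in the Ibr libraries. With all libraries thinned to the same total, 372 differentially expressed genes (DEGs) were found in place of 374, and 336 were shared. Only 1068 of the 18670 genes tested could be paired with a gene symbol, from identifier columns of tables of genes that the study had selected on these libraries, so the named genes are not a random sample and the largest changes named are the largest among paired genes. BTK itself was not analysed by name here. Genes without a paired symbol may be among the unnamed genes tested. Of the B-cell markers, 6 of 11 were paired and all averaged 1 CPM or more, with a summed level of 4550 to 4780 CPM with DMSO and 3880 to 4850 CPM with Ibr. Of the T and NK cell markers, 7 of 10 were paired and none reached a mean of 1 CPM, and their summed level was 0.402 to 0.826 CPM with DMSO and 0.822 to 1.19 CPM with Ibr. The defining B-cell genes CD79A, CD79B, MS4A1 and PAX5 were not analysed by name here.

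Ibr changed a small share of the transcriptome at 48 h. A gene was called a DEG at an adjusted p of at most 0.05 (edgeR's quasi-likelihood test, Benjamini-Hochberg adjusted over all genes tested) and an absolute log2 fold change (log2 FC) above 1. Under this definition 374 genes, 2% of those tested, were DEGs, of which 166 (0.889%) were higher and 208 (1.11%) were lower with Ibr. At the adjusted p alone, 1978 genes (10.6%) passed, 1055 (5.65%) higher and 923 (4.94%) lower, and 1604 of them changed by less than 2-fold. Among the 10710 genes that averaged 1 CPM or more, the middle 90% of log2 FC lay between -0.58 and 0.56, and the 95% interval of 9617 genes (89.8%) lay within a 2-fold change in either direction. In these bulk libraries a lower level in each cell and a smaller share of cells with the transcript cannot be told apart.

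A mean of 1 CPM or more was reached by 115 of the 166 higher and 167 of the 208 lower DEGs, against 10710 of all 18670 genes tested. The DEGs higher with Ibr had a median of 1.84 CPM and 35 of them reached 10 CPM, and the DEGs lower with Ibr had a median of 2.57 CPM and 62 reached 10 CPM. The direction was the same in all 3 passages for 162 of the 166 higher DEGs and for all 208 lower DEGs. The values of the 3 Ibr libraries lay wholly above or below those of the 3 DMSO libraries for 142 of the higher and 199 of the lower DEGs, against 22.2% of all genes tested. The counts for direction and overlap come from the libraries on which the DEGs were called, so they are no separate check of the calls. The higher DEGs reached larger fitted changes, with a log2 FC above 2 for 60 genes and above 3 for 28, against 46 and 13 lower DEGs of that size. A test against the size limit itself (glmTreat) called 51 genes, of which only 33.3% were higher. For 32 higher and 20 lower DEGs 1 group was at or under 3 counts in every library, and their fitted changes depend on the prior count.

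**Figure D1:**
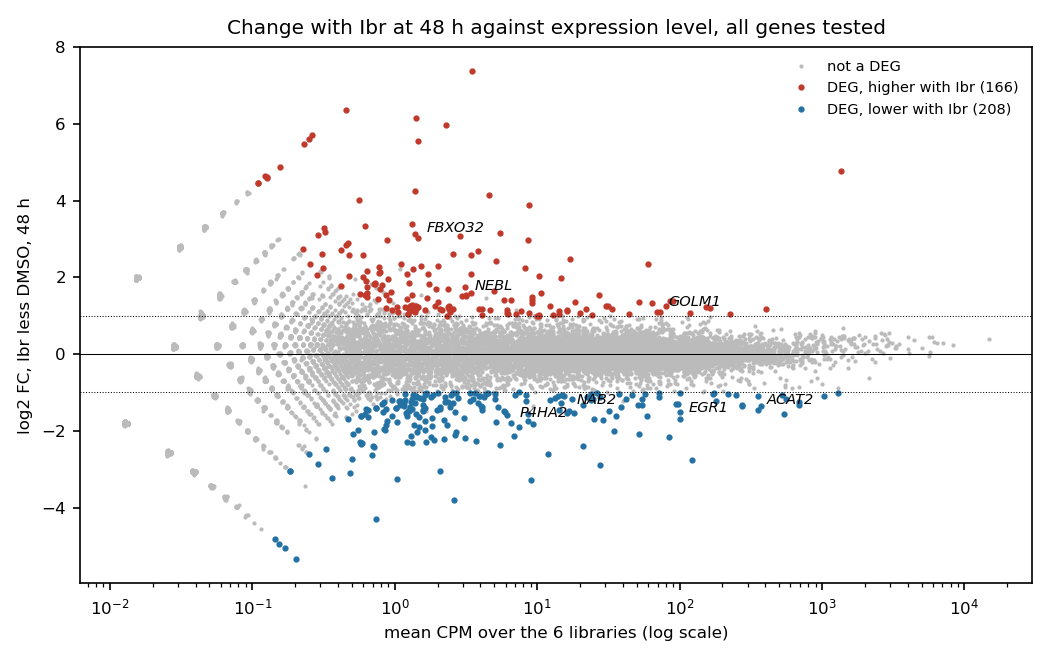
Log2 FC of Ibr against DMSO at 48 h (vertical axis) against mean CPM over the 6 libraries (horizontal axis, log scale) for all genes tested. Grey points are not DEGs, red points are the 166 DEGs higher and blue points the 208 DEGs lower with Ibr, dotted lines mark a 2-fold change, and some of the named genes are labelled. Red points reach higher absolute values than blue points, and 1 red point lies far to the right at 4.76.

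The higher DEGs did not all rise evenly in the 3 passages. For 24 of the 166, the highest Ibr library exceeded the lowest by over 4-fold (with 0.1 CPM added to both), and in 23 of these the highest was replicate 3. The median level of these 24 genes was 0.168 CPM with DMSO, and 1.10 CPM, 0.23 CPM and 5.11 CPM in Ibr replicates 1, 2 and 3. Over all genes tested, a spread of this size had its highest value in replicate 3 for 145 genes, in replicate 1 for 160 and in replicate 2 for 68. Without replicate 3, 2 of the 24 were still DEGs, and of all DEGs 90 of the 166 higher and 125 of the 208 lower were, with 278 DEGs in total. Without replicate 1, 98 and 153 were, and without replicate 2, 132 and 162. None of the 24 genes has a paired symbol.

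The most abundant of the higher DEGs, which has the identifier ENSCAFG00000041995 and was chosen after its values were seen, was one of these uneven genes. It had 185, 60 and 54.1 CPM with DMSO and 1020, 93.3 and 6770 CPM with Ibr in replicates 1, 2 and 3. In Ibr replicate 3 it took 0.68% of all reads on genes, whereas Ibr replicate 2 lay between the DMSO libraries, so the groups overlapped. The log2 FC was 4.76 ± 1.13 (SE; adjusted p = 0.00691), and 1.98 ± 0.97 (adjusted p = 0.312) without replicate 3. A fit of the 6 libraries alone gave 3.12 with an adjusted p of 0.533. At 24 h it had 89.3 to 133 CPM with Ibr and 50.5 to 72.4 CPM with DMSO, and at 72 h 49.3 and 73.8 CPM with Ibr against 163 to 185 CPM with DMSO. The 48 h libraries of replicate 1 were also the highest of their groups with DMSO, with AS (733 CPM against 44.9 and 55.3) and with Ibr + AS (2770 CPM against 636 and 612). What set its level in Ibr replicate 3 was not tested.

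Counts within the gene lists below stand against 10.6% of all genes tested, and 13% of the 1068 paired genes, that passed at the adjusted p, and against 2% and 1.78% that were DEGs. In all lists, the genes counted as tested are those paired with a symbol, and other members may be among the unnamed genes tested. The lists were chosen with earlier results of these data known, so their counts are no independent evidence of a shift. Of 36 listed genes of B-cell receptor and NF-kB signalling 20 were paired and tested, and none of these 20 was a DEG. At the adjusted p, 3 rose (against 5.65% of all genes) and 1 fell (against 4.94%), 16 did not pass, and the median log2 FC was 0.06, against a median of 0.00 over all genes tested. TNFRSF13C, the receptor for the survival factor BAFF, had 103, 107 and 102 CPM with DMSO and 132, 157 and 149 CPM with Ibr. All Ibr libraries were above all DMSO libraries, and the log2 FC with its standard error was 0.48 ± 0.10 (adjusted p = 0.000186). DEF6, a guanine nucleotide exchange factor of lymphocytes, rose by 0.31 and RAC2, a small GTPase of blood cells, by 0.28 on the log2 scale (adjusted p = 0.0125 and 0.0362), while TNFAIP3, an inhibitor of NF-kB, fell from 40.0 ± 1.58 CPM (SD, n = 3) to 31.8 ± 1.98 CPM (SD, n = 3) (log2 FC -0.33 ± 0.11, adjusted p = 0.0367). DEF6 did not pass without replicate 1 (adjusted p = 0.166) or replicate 3 (0.125), RAC2 not without replicate 2 (0.399) or 3 (0.142), and TNFAIP3 did not pass when any 1 replicate was left out (0.0987 to 0.213) or without the passage term (0.0543).

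Other genes of this pathway that are named here did not pass the test. NFATC1, a calcium-dependent transcription factor, had a log2 FC of -0.13 ± 0.10 (adjusted p = 0.546) and a 95% interval from -0.34 to 0.07. MALT1, the paracaspase of the NF-kB branch, had 0.22 ± 0.19 (95% interval -0.18 to 0.63, adjusted p = 0.636), and its Ibr libraries, 56.9, 35.8 and 63.8 CPM, enclosed the range of the DMSO libraries. INPP5D, the lipid phosphatase SHIP1, had -0.19 ± 0.10 (95% interval -0.38 to 0.00, adjusted p = 0.242), and PIK3R1, a regulatory subunit of phosphoinositide 3-kinase, 0.05 ± 0.09 (95% interval -0.14 to 0.23, adjusted p = 0.888). In a fit of the 6 libraries alone INPP5D did pass (adjusted p = 0.014). For NFATC1, INPP5D and PIK3R1 the interval lay within a log2 FC of 0.5 in either direction.

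**Figure D2:**
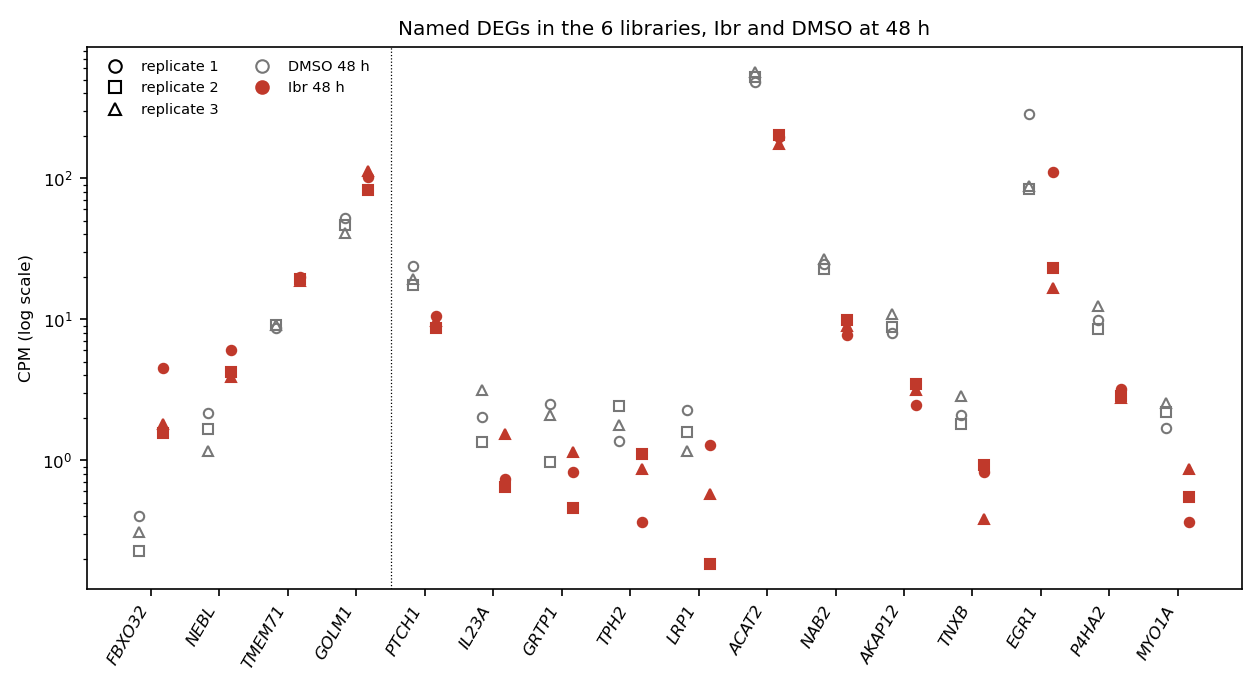
CPM (vertical axis, log scale) of the 16 named DEGs that averaged 1 CPM or more in the 3 DMSO libraries (open grey) and the 3 Ibr libraries (filled red) at 48 h, with 1 marker shape for each passage. The 4 genes left of the dotted line were higher with Ibr and the 12 to its right lower, and the groups overlap for EGR1, LRP1, GRTP1 and IL23A.

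Immediate early and activation-induced genes moved in both directions. Of 26 listed genes 13 were tested, 2 rose and 5 fell at the adjusted p, 3 of the latter were DEGs, and the median log2 FC was -0.05. Of all genes tested, 10.6% passed at the adjusted p and 2% were DEGs. EGR1, the zinc-finger transcription factor, had 283, 84.0 and 87.8 CPM with DMSO and 110, 23.1 and 16.5 CPM with Ibr. Replicate 1 was the highest of both groups and its Ibr library lay above 2 of the DMSO libraries, although EGR1 was lower with Ibr within each passage. The log2 FC was -1.69 ± 0.53 (adjusted p = 0.0424), and no call was left without the passage term (adjusted p = 0.204) or without any 1 of the replicates (0.0629 to 0.191). NAB2, a corepressor that binds EGR factors and is itself induced by EGR1, had 24.4, 22.5 and 26.5 CPM with DMSO and 7.67, 9.83 and 8.88 CPM with Ibr. The groups lay far apart, the log2 FC was -1.47 ± 0.14 (adjusted p = 3.52e-16), and NAB2 was a DEG under every alternative run for single genes.

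IL23A, which encodes a subunit of interleukin-23, had 2.01, 1.35 and 3.16 CPM with DMSO and 0.731, 0.643 and 1.53 CPM with Ibr, and the groups overlapped. Its log2 FC was -1.17 ± 0.33 (adjusted p = 0.00965), and it was no DEG without replicate 1 (adjusted p = 0.106) or replicate 3 (0.0674). Among the other called members, IER3, an early response gene, had a log2 FC of -0.80 ± 0.21 (adjusted p = 0.00803). IRF1, a transcription factor of the interferon response, rose by 0.42 and LTA, the cytokine lymphotoxin alpha, by 0.30 on the log2 scale (adjusted p = 0.00179 and 0.0406), and IRF1 did not pass without replicate 3 (0.0772), LTA not without any 1 of the replicates (0.0556 to 0.332) nor without the passage term (0.0814). IER3 missed the limit without replicate 3 (0.0789). MYC, a driver of growth, had 192, 164 and 196 CPM with DMSO and 223, 228 and 203 CPM with Ibr. The Ibr libraries were all above the DMSO libraries, but MYC did not pass over all genes (log2 FC 0.25 ± 0.10, adjusted p = 0.0883). It did in a fit of the 6 libraries alone (0.00222). Without replicate 3, 1 of the 13 genes was still called at the adjusted p, and the median turned to 0.06.

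Of the list for PI3K, AKT, mTOR and FOXO, 18 of 32 genes were tested, 2 rose, 3 fell and 13 did not pass, with a median log2 FC of -0.13. FBXO32, a subunit of a ubiquitin ligase known from muscle wasting and a FOXO target, had 0.402, 0.225 and 0.308 CPM with DMSO and 4.47, 1.56 and 1.81 CPM with Ibr. It rose in every passage, most in that of replicate 1, the groups did not overlap, and the log2 FC of 3.02 ± 0.41 (adjusted p = 4.01e-09) was the largest among paired DEGs. The DMSO libraries held 5, 3 and 4 reads and the Ibr libraries 49, 17 and 19 reads, so the counts behind it were low. SGK1, a kinase related to AKT, had 95.3, 62.8 and 62.7 CPM with DMSO and 59.5, 28.3 and 25.9 CPM with Ibr, lower within each passage, and its log2 FC was -0.97 ± 0.24 (adjusted p = 0.00938). PPP2R5D, a regulatory subunit of protein phosphatase 2A, had -0.39 ± 0.10 (adjusted p = 0.00212) and IGF2R, a receptor that sorts lysosomal enzymes, -0.30 ± 0.10 (adjusted p = 0.0318). TFEB, a transcription factor of lysosomal genes, rose by 0.26 (adjusted p = 0.0422), and no longer passed without any 1 of the replicates (0.0863 to 0.433). SGK1 did not pass without replicate 2 (0.0647) or 3 (0.0862), IGF2R not without replicate 1 (0.407) or 3 (0.104) nor without the passage term (0.054), and PPP2R5D not without replicate 3 (0.0572). Without replicate 3, 1 of the 18 genes passed in place of 5.

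Of the tested genes of sterol synthesis, 3 fell with Ibr. Of 17 listed genes 4 were tested and 1, ACAT2, was a DEG, and the median log2 FC was -0.57. ACAT2, the cytosolic thiolase that makes acetoacetyl-CoA for the mevalonate pathway, had 478, 526 and 569 CPM with DMSO and 196, 202 and 175 CPM with Ibr. The Ibr libraries were all less than 0.5 of the lowest DMSO library, and with a log2 FC of -1.46 ± 0.09 (adjusted p = 3.76e-26) the gene had the lowest adjusted p among paired genes. SQLE, squalene epoxidase, had 928, 1067 and 1091 CPM with DMSO and 556, 779 and 577 CPM with Ibr, without overlap, and a log2 FC of -0.69 ± 0.10 (adjusted p = 2.42e-08). SREBF2, the transcription factor that induces this pathway, had -0.45 ± 0.09 (adjusted p = 0.000101), and ERLIN1 had 0.05 ± 0.11 (adjusted p = 0.942), which did not pass. The calls of ACAT2 and SQLE stood under every alternative run for single genes. Most enzymes of the pathway were not paired with an identifier and were not analysed by name here.

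Of the list for hypoxia and glycolysis 9 of 19 genes were tested, 1 fell and 1 rose. P4HA2, a catalytic subunit of collagen prolyl 4-hydroxylase and a known target of hypoxia-inducible factor, had 9.80, 8.56 and 12.3 CPM with DMSO and 3.20, 2.85 and 2.77 CPM with Ibr. The Ibr libraries were close together and far below the DMSO libraries (log2 FC -1.80 ± 0.21, adjusted p = 3.44e-10). PFKFB2, an enzyme that sets the level of fructose 2,6-bisphosphate, had 5.30, 4.43 and 4.85 CPM with DMSO and 9.13, 6.43 and 9.83 CPM with Ibr and a log2 FC of 0.80 ± 0.18 (adjusted p = 0.000807), which was 0.68 with an adjusted p of 0.0513 without replicate 3. Of 11 genes for oxidative stress, heme and iron, 3 fell and 1 rose, against 10.6% of all genes that passed. SOD2, mitochondrial superoxide dismutase, had a log2 FC of -0.42 ± 0.09 (adjusted p = 0.000688), the autophagy receptor SQSTM1 -0.41 ± 0.10 (adjusted p = 0.00165), the iron-regulatory ACO1 -0.31 ± 0.10 (adjusted p = 0.0285) and OXR1 0.36 ± 0.10 (adjusted p = 0.00862). Without replicate 3, SQSTM1 alone of these passed. SOD2 had an adjusted p of 0.0793 there, OXR1 one of 0.155, and of 0.0535 without replicate 2, and ACO1 did not pass without any 1 of the replicates (0.0674 to 0.197). Of 14 mitochondrial genes 12 did not pass, and citrate synthase, CS (-0.27 ± 0.09, adjusted p = 0.0274) and malic enzyme 2, ME2 (0.26 ± 0.09, adjusted p = 0.0366) passed in opposite directions and not without any 1 of the replicates (0.0571 to 0.299 and 0.129 to 0.255). In a fit of the 6 libraries alone more of the 14 passed, 3 higher and 5 lower.

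Among genes of the actin cytoskeleton and of adhesion, 16 of 17 were tested, 4 rose and 1 fell, and 1 in each direction was a DEG. NEBL, the actin-binding protein nebulette, had 2.17, 1.65 and 1.16 CPM with DMSO and 6.03, 4.22 and 3.91 CPM with Ibr, without overlap (log2 FC 1.51 ± 0.25, adjusted p = 1.27e-06). AKAP12, a scaffold that holds protein kinases A and C, had 7.95, 8.79 and 10.9 CPM with DMSO and 2.47, 3.49 and 3.15 CPM with Ibr, also without overlap (log2 FC -1.59 ± 0.20, adjusted p = 9.96e-10). MTSS1, which shapes membranes, had a log2 FC of 0.94 ± 0.20 (adjusted p = 0.00113), PARVG, a binding partner of integrin-linked kinase in blood cells, 0.46 ± 0.09 (adjusted p = 0.000135) and RAC2 the value given above. MTSS1 did not pass without replicate 1 (adjusted p = 0.068) and was a DEG without replicate 2 or 3 (log2 FC 1.02 and 1.01). Outside the list, the myosin MYO1A had 1.69, 2.18 and 2.54 CPM with DMSO and 0.365, 0.551 and 0.859 CPM with Ibr, in low counts and without overlap (log2 FC -1.84 ± 0.36, adjusted p = 6.29e-05).

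The other DEGs named by size of change belong to no list. GOLM1, a protein of the Golgi membrane, had 52.0, 46.4 and 40.8 CPM with DMSO and 102, 82.4 and 113 CPM with Ibr, and TMEM71, a membrane protein, had 8.68, 9.09 and 9.09 CPM and 19.9, 19.4 and 18.7 CPM. Both rose without overlap, with a log2 FC of 1.09 ± 0.12 (adjusted p = 2.02e-09) for GOLM1 and 1.11 ± 0.19 (adjusted p = 0.000198) for TMEM71, and GOLM1 without replicate 3 stood at 0.91, short of the size limit, with an adjusted p of 3.04e-07. PTCH1, the receptor for hedgehog ligands, fell from 23.9, 17.4 and 19.3 CPM to 10.6, 8.63 and 9.73 CPM (log2 FC -1.06 ± 0.15, adjusted p = 1.93e-08), and stood at -0.99 without replicate 1. TNXB, an extracellular matrix protein, had 2.09, 1.80 and 2.85 CPM with DMSO and 0.822, 0.919 and 0.382 CPM with Ibr, and a log2 FC of -1.65 ± 0.36 (adjusted p = 0.000392) with an adjusted p of 0.0909 without replicate 3. TPH2, which catalyses the first step of serotonin synthesis, had 1.37, 2.40 and 1.77 CPM with DMSO and 0.365, 1.10 and 0.859 CPM with Ibr, without overlap (log2 FC -1.25 ± 0.37, adjusted p = 0.014). The endocytic receptor LRP1 fell from 2.25, 1.58 and 1.16 CPM to 1.28, 0.184 and 0.573 CPM (log2 FC -1.27 ± 0.42, adjusted p = 0.0354), and GRTP1, a TBC domain protein, from 2.49, 0.976 and 2.08 CPM to 0.822, 0.459 and 1.15 CPM (log2 FC -1.18 ± 0.36, adjusted p = 0.0185). The groups overlapped for LRP1 and GRTP1. TPH2 was no DEG without any 1 of the replicates (0.0549 to 0.127), LRP1 not without replicate 2 (0.306) or 3 (0.0881) nor without the passage term (0.0638), and GRTP1 not without replicate 1 (0.301) or 3 (0.0519).

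Several ribosomal proteins and translation factors rose by small amounts. Of the 16 genes, all tested, 7 rose at the adjusted p, none fell, none was a DEG, and the median log2 FC was 0.25, against 5.65% of all genes that rose. All 16 averaged 1 CPM or more, against 10710 of the 18670 genes tested, and small changes pass more readily at high counts. The share over all genes is thus no like measure for this list. RPS12, of the small ribosomal subunit, had the largest change, with 2180, 2333 and 2393 CPM with DMSO and 3105, 3294 and 3329 CPM with Ibr (log2 FC 0.49 ± 0.11, adjusted p = 0.000932). RPS6 had 0.42 ± 0.10 (adjusted p = 0.000895), RPL10A 0.43 ± 0.10 (adjusted p = 0.000519), the initiation factor subunit EIF3E 0.44 ± 0.11 (adjusted p = 0.00661), the elongation factor subunit EEF1D 0.32 ± 0.10 (adjusted p = 0.0214), NACA, which binds nascent chains, 0.31 ± 0.09 (adjusted p = 0.0183) and the poly-A binding protein PABPC1 0.29 ± 0.09 (adjusted p = 0.0268). NACA, PABPC1 and EEF1D did not pass without any 1 of the replicates (0.0688 to 0.327), nor EIF3E without replicate 1 (0.114). With single replicates left out 3 or 4 of the 16 passed and the median stayed between 0.18 and 0.28. Ribosomal protein genes have near-identical processed copies in the genome, among which reads can be split, so their values are less certain. Ribosome biogenesis, with 14 genes tested, had 1 gene called in each direction, BYSL at 0.38 ± 0.09 (adjusted p = 0.00173) and RPP21 at -0.55 ± 0.14 (adjusted p = 0.00508), and both missed the limit without replicate 3 (adjusted p = 0.0524 and 0.105).

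Cell cycle and DNA replication genes did not move together. Of 33 listed genes 25 were tested, 3 rose, 3 fell, none was a DEG, and the median log2 FC was -0.07. CDC25C, the phosphatase that starts mitosis, had 36.5, 44.4 and 48.1 CPM with DMSO and 25.8, 33.3 and 28.2 CPM with Ibr, without overlap (log2 FC -0.56 ± 0.11, adjusted p = 7.24e-05), and TONSL, which acts at damaged replication forks, fell from 168 ± 23.5 CPM (SD, n = 3) to 117 ± 5.51 CPM (SD, n = 3) (log2 FC -0.52 ± 0.10, adjusted p = 3.43e-05). The cyclin-dependent kinase CDK2 had -0.32 ± 0.10 (adjusted p = 0.0239). CCND3, cyclin D3, had 0.31 ± 0.09 (adjusted p = 0.0104), MCM9 0.36 ± 0.11 (adjusted p = 0.0209) and RMI1 0.39 ± 0.13 (adjusted p = 0.0486). Of these, CDC25C and TONSL passed with any 1 replicate left out. CDK2 did not pass without replicate 1 (0.239) or 3 (0.288), CCND3 not without replicate 2 (0.085) or 3 (0.106), MCM9 not without replicate 1 (0.096) or 3 (0.422), and RMI1 not without replicate 1 (0.682) or 2 (0.145) nor without the passage term (0.0672). Of regulators named apart from the lists, MYB, a transcription factor of blood progenitors, had -0.21 ± 0.11 (adjusted p = 0.267) and BCL2, an inhibitor of apoptosis, -0.10 ± 0.12 (adjusted p = 0.726), and neither passed. Of 11 genes of amino acid and tRNA synthesis 3 fell and none rose, namely PSAT1 of serine synthesis (-0.39 ± 0.09, adjusted p = 0.000824), the methionyl-tRNA synthetase MARS1 (-0.38 ± 0.09, adjusted p = 0.00134) and SHMT2 of one-carbon metabolism (-0.34 ± 0.10, adjusted p = 0.00872), and without replicate 1 neither PSAT1 (adjusted p = 0.068) nor SHMT2 (0.202) passed, nor SHMT2 without replicate 3 (0.0514).

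Immune genes showed small shifts. Of 12 genes of interferon and innate immunity 4 rose, against 5.65% of all genes, none fell, and the median log2 FC was 0.12. These were APOL6 (0.64 ± 0.12, adjusted p = 5.97e-05), IRF1, IRF5 (0.29 ± 0.09, adjusted p = 0.0242), and IRAK3, an inhibitor of Toll-like receptor signalling, at 0.89 ± 0.27 (adjusted p = 0.0329) with overlapping groups. Without replicate 1, 2 of the 12 genes passed, and without replicate 3 APOL6 alone did. IRF5 stood at an adjusted p of 0.154 and 0.283 in these fits, IRAK3 at 0.136 and 0.245 and IRF1, lost without replicate 3 alone, at 0.0772 there. Of 8 genes of antigen presentation 1 passed, DLA-DMA, which helps to load peptides on MHC class II molecules, with 544, 549 and 517 CPM with DMSO and 406, 401 and 368 CPM with Ibr (log2 FC -0.45 ± 0.09, adjusted p = 0.000134), and DLA88, an MHC class I gene, had -0.23 ± 0.10 (adjusted p = 0.171). DLA88 passed in a fit of the 6 libraries alone (0.0198) and without replicate 2 (0.0294). In the B-cell marker list DLA-DMA fell and TNFRSF13C rose. GSDMD, the pore-forming effector of pyroptosis, was the only one of 11 genes of apoptosis and p53 that passed (0.50 ± 0.10, adjusted p = 0.000133), and BCLAF1 had 0.24 ± 0.13 (adjusted p = 0.323). BCLAF1 passed in a fit of the 6 libraries alone (0.00349). Of 12 lysosomal genes none fell and none was a DEG, and the median log2 FC was 0.05.

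Of 8 markers of myeloid cells 5 were tested and 2 rose, with a summed level of 254 to 286 CPM with DMSO and 347 to 426 CPM with Ibr. LYZ, lysozyme, had 65.0, 81.4 and 81.0 CPM with DMSO and 140, 165 and 141 CPM with Ibr, just short of the size limit at a log2 FC of 0.97 ± 0.12 (adjusted p = 4.31e-07), and was a DEG without replicate 3 (1.06). NCF4, a subunit of the NADPH oxidase that B cells also express, had 0.28 ± 0.09 (adjusted p = 0.038), and missed the limit without the passage term (adjusted p = 0.0511) and without replicate 2 (0.316) or 3 (0.187). The defining myeloid markers CD14, CSF1R and MPO were not analysed by name here. TREM2 was at 0.0507 ± 0.0439 CPM (SD, n = 3) with DMSO and at 0 with Ibr, and the part of such cells in these changes was not tested. For T and NK cells, the highest count of CD226 in any of the 6 libraries was 3 and that of IL4 was 1, and IL13 and IL2RB had no read. DSE, an epimerase of dermatan sulfate, rose with a log2 FC of 0.41 ± 0.09 (adjusted p = 0.000321), and NHSL1 had -0.45 ± 0.29 (adjusted p = 0.436), which did not pass.

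**Figure D3:**
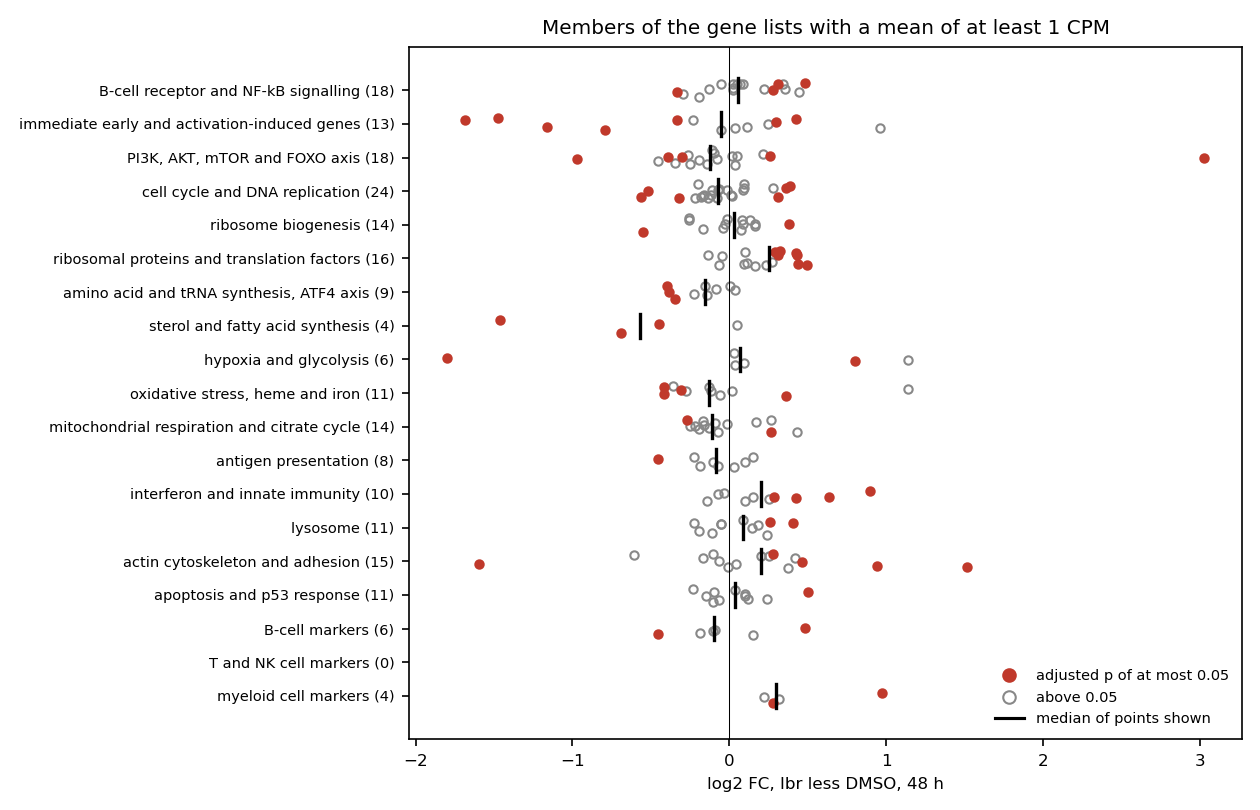
Log2 FC of Ibr against DMSO at 48 h (horizontal axis) for the members of each gene list that averaged 1 CPM or more, with their number in brackets. Filled red points passed at an adjusted p of at most 0.05, open grey points did not, and black bars are medians of the points shown. Beyond a 2-fold change lie ACAT2, P4HA2, HMOX1, NEBL, AKAP12, FBXO32, EGR1, NAB2 and IL23A, of which HMOX1 did not pass.

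The naming rule also picked identifiers without a paired symbol by the size of their change. These are extremes of a set far larger than that of the paired genes. Whether changes were larger in that set was not tested. ENSCAFG00000029903 had 0, 1 and 0 reads with DMSO and 34, 2 and 184 reads with Ibr, and its fitted log2 FC of 7.36 lost its call without replicate 3 (adjusted p = 0.103). Ibr replicate 2, with 2 reads, was under the floor of 3 counts, and no fold is given against 1 read in the DMSO libraries. The second identifier that the naming rule picked for its rise had 1, 0 and 0 reads with DMSO and 13, 3 and 72 reads with Ibr, and it was no DEG with DESeq2 (adjusted p = 0.0776) or after thinning (0.0604). ENSCAFG00000007609 had 5.06, 4.58 and 4.93 CPM with DMSO and 0.0913, 0.551 and 0.382 CPM with Ibr, and ENSCAFG00000015708 13.4, 13.8 and 22.2 CPM and 1.92, 1.84 and 1.24 CPM. Both fell in all passages without overlap, with log2 FCs of -3.79 ± 0.36 (adjusted p = 7.53e-16) and -3.29 ± 0.38 (adjusted p = 1.45e-06).

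The effect of Ibr at 48 h was set beside that at 24 h and at 72 h, which use other libraries of the same passages. At 24 h, Ibr gave 210 DEGs (1.12%), 163 (0.873%) higher and 47 (0.252%) lower, and at 72 h, with 2 Ibr libraries, 745 (3.99%), 242 (1.3%) higher and 503 (2.69%) lower. Of the 166 genes higher at 48 h, 158 (95.2%) were also higher at 24 h and 123 (74.1%) at 72 h, with median log2 FCs of 1.17 and 0.82. Of the 208 lower genes, 177 (85.1%) were lower at 24 h and 189 (90.9%) at 72 h, with medians of -0.57 and -0.95. Among all genes with at least 1 CPM the share with the same sign as at 48 h was 71.9% at 24 h and 57.2% at 72 h. DEGs at all 3 times in the same direction numbered 45 higher and 17 lower. A further 68 higher and 105 lower were DEGs at 48 h alone, and for 0 and 3 of these did the difference itself pass against both other times.

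Tested as a difference, the effect at 48 h and that at 24 h differed in 44 genes (0.236%), 2 (0.0107%) higher and 42 (0.225%) lower at 48 h, and 11 genes were left without replicate 3. P4HA2 had a log2 FC of 0.20 ± 0.27 at 24 h and -1.80 ± 0.21 at 48 h, a difference of -2.0 ± 0.35 (adjusted p = 0.000225). Its level with DMSO was 2.11 ± 0.625 CPM at 24 h, 10.2 ± 1.92 CPM at 48 h and 11.3 ± 2.33 CPM at 72 h, and with Ibr 2.43 ± 0.532 CPM, 2.94 ± 0.228 CPM and 10.1 ± 1.17 CPM (mean ± SD, n = 3, with n = 2 for Ibr at 72 h). Between 24 h and 48 h the log2 FC was 2.27 ± 0.21 with DMSO (adjusted p = 2.15e-13) and 0.27 ± 0.26 with Ibr (adjusted p = 0.957). ACAT2 had -0.51 ± 0.09 at 24 h, and its difference of -0.95 ± 0.13 passed (adjusted p = 1.87e-07) but was short of the size limit. Its level with DMSO rose from 231 ± 21.1 CPM at 24 h to 524 ± 45.8 CPM at 48 h (log2 FC 1.19 ± 0.09, adjusted p = 4.97e-20), and with Ibr it was 162 ± 5.05 CPM and 191 ± 13.8 CPM. The 208 lower DEGs had a median log2 FC of 0.66 between DMSO at 48 h and at 24 h. Of them 43 were DEGs that rose with time in DMSO, against 80 such DEGs among all 18670 genes tested. The 166 higher DEGs had a median of -0.20 there, and 1 of them rose and 4 fell as DEGs with time in DMSO. All these values share the DMSO libraries of 48 h with the comparison that chose the genes.

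Between 48 h and 72 h the effect differed in 362 genes (1.94%), 138 (0.739%) higher and 224 (1.2%) lower at 72 h, and this number was 207 without replicate 1 and 204 without replicate 2. FBXO32 had 1.55 ± 0.34 at 24 h, 3.02 ± 0.41 at 48 h and 1.09 ± 0.46 at 72 h, and the difference from 48 h to 72 h was -1.93 ± 0.66 (adjusted p = 0.045). Its difference from 24 h to 48 h, 1.48 ± 0.57, did not pass (adjusted p = 0.369). Its mean level at 24 h and 48 h was 2.33 and 2.62 CPM with Ibr, and 0.781 and 0.312 CPM with DMSO. NEBL stood at 2.71 ± 0.30 at 72 h, and the difference of 1.20 ± 0.40 passed (adjusted p = 0.0432). TMEM71 stood at -0.08 ± 0.21 and AKAP12 at -0.13 ± 0.20 at 72 h, and for both the difference from 48 h passed (adjusted p = 0.00817 and 0.000198). GRTP1 was a DEG in opposite directions at 48 h and at 72 h, where it had 2.16 ± 0.41 (adjusted p = 2.02e-05). For the EGR1 and NAB2 pair the log2 FC at 24 h and 72 h was -2.47 and -2.28 for EGR1 and -0.91 and -1.89 for NAB2, and the differences from 48 h did not pass (for NAB2 adjusted p = 0.25 against 24 h and 0.223 against 72 h).

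**Figure D4:**
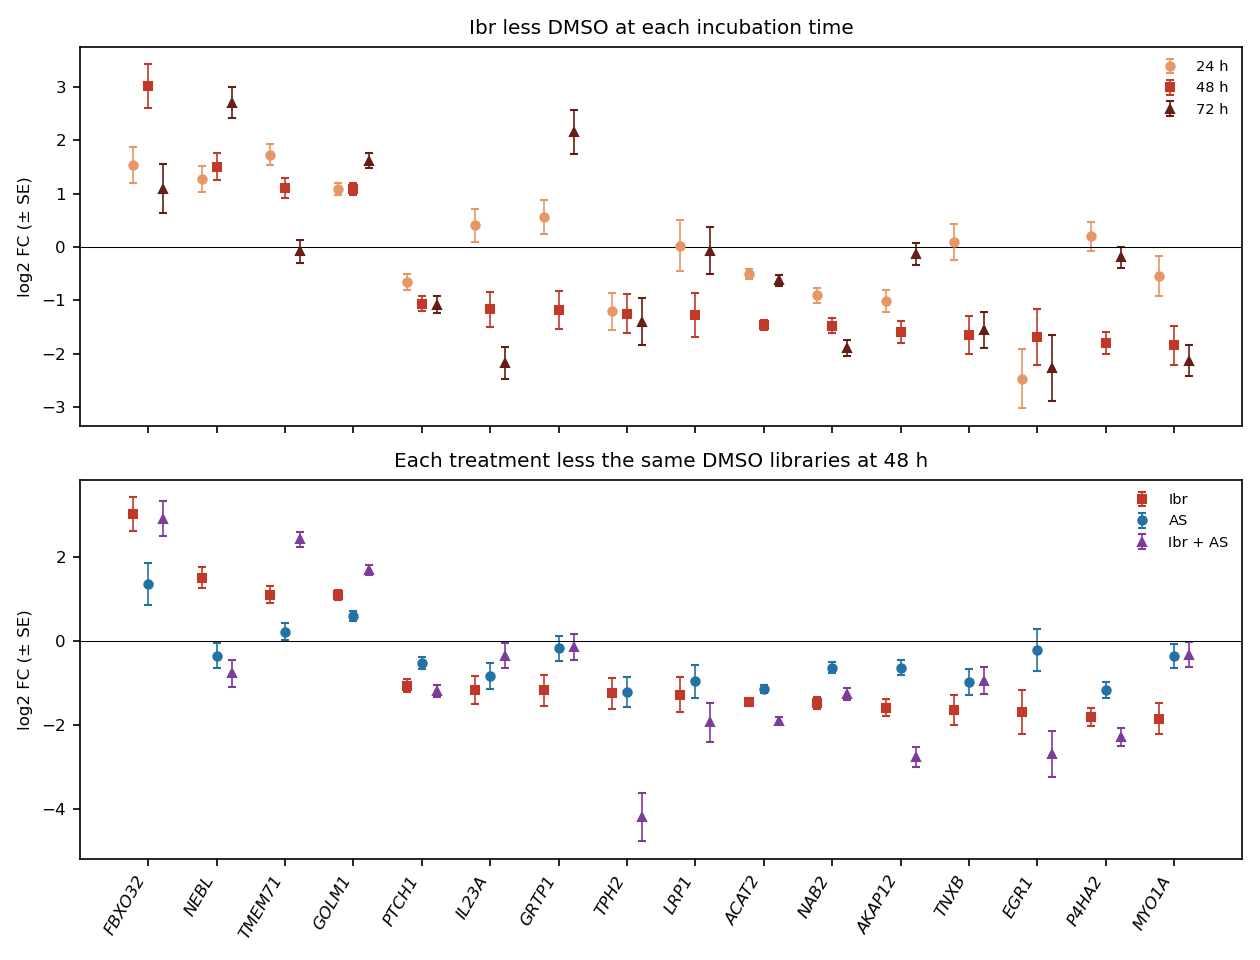
Log2 FC with its standard error (vertical axes) of the 16 named DEGs, for Ibr against DMSO at 24, 48 and 72 h in the upper panel and for Ibr, AS and Ibr + AS against the same DMSO libraries at 48 h in the lower panel. The genes stand in the order of their change with Ibr at 48 h. FBXO32 is highest at 48 h, though its difference from 24 h did not pass. GRTP1 lies on opposite sides of 0 at 48 h and 72 h, and in the lower panel TPH2 reaches its lowest value with Ibr + AS.

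At 48 h the other treatments share the DMSO libraries with Ibr, so their values are given side by side. Against these libraries AS gave 114 DEGs (0.611%), 19 (0.102%) higher and 95 (0.509%) lower. Ibr + AS gave 1435 (7.69%), 908 (4.86%) higher and 527 (2.82%) lower. The 166 higher DEGs of Ibr had a median log2 FC of 1.55 with Ibr, 0.68 with AS and 2.14 with Ibr + AS, and the 208 lower DEGs -1.42, -0.88 and -1.54. ACAT2 stood at -1.14 with AS and -1.90 with Ibr + AS, P4HA2 at -1.17 and -2.29, and FBXO32 at 1.36 and 2.92. NEBL stood at -0.35 ± 0.30 with AS and at -0.77 ± 0.33 with Ibr + AS, and neither value passed.

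Ibr and AS were also compared directly at 48 h, at unequal doses of 1 µM and 5 µM, and differed in 62 genes (0.332%), 34 (0.182%) higher and 28 (0.15%) lower with Ibr. This number was 36 without replicate 3. The DEGs with symbols in this comparison that the naming rule picked were FBXO32 (1.66 ± 0.34, adjusted p = 0.000943), NEBL (1.86 ± 0.26, adjusted p = 1.81e-07) and SLA, an adaptor that dampens antigen receptor signalling (1.10 ± 0.15, adjusted p = 3.69e-08), all higher with Ibr, and MYO1A, lower with Ibr (-1.50 ± 0.38, adjusted p = 0.0149). Against DMSO, SLA had 0.36 ± 0.14 (adjusted p = 0.0866) with Ibr, and it fell with AS by less than the size limit (-0.74 ± 0.15, adjusted p = 0.000252). NAB2 was lower with Ibr than with AS, at a log2 FC of -0.84 ± 0.14, and so was ACAT2, at -0.32 ± 0.09 (adjusted p = 2.45e-05 and 0.0474), both short of the size limit. P4HA2 did not pass in this comparison (-0.63 ± 0.24, adjusted p = 0.233).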

How the data were processed

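RNA of CLBL-1 cells was sequenced as poly-A selected single-end libraries. Per the labels and the study's methods, the authors aligned reads with STAR 2.7.5a to CanFam3.1 and deposited raw read counts per Ensembl gene (release 101) in 1 table; which strand setting was kept is not given in the sources used here. The table holds 30424 identifiers, and the 36 libraries have 9941919 to 14703839 counts, which bounds the precision for genes of low abundance. Groups and passages were taken from the labels; for DMSO 24 h replicate 3 the title and the passage field disagree, and the field was used.

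Counts were fitted with edgeR 4.0.16 (quasi-likelihood, robust, TMM) in R 4.3.3 on 35 libraries, leaving out Ibr 72 h replicate 3 as the study did, with group and passage as terms, for the 18670 identifiers with at least 2 reads in all. All gene types were tested. DEGs needed a Benjamini-Hochberg adjusted p no higher than 0.05 and a log2 FC beyond 1 in either direction. Replicate numbers mark the cell passage in the labels, and deviations from the group means of same-passage libraries correlated at 0.112 to 0.475, those of different passages at -0.454 to 0.0584.

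Named were, among genes with a symbol, up to 12 DEGs in each direction with the largest change, a mean of at least 1 CPM and the same direction in each passage, members of the gene lists that were DEGs or else had the smallest p (at most 2), 11 genes of the pathway whatever their values, genes of the same kind for the differences between times and from AS, and 2 identifiers without symbol in each direction. Other called members of the lists are named to account for their counts. Members, lists and named genes were chosen with earlier results of these data known. Alternatives were DESeq2 1.42.0, other size factors and filters, all 36 libraries, no passage term, a test against the size limit (glmTreat), thinning, the compared groups alone, each replicate left out and, added after seeing the data, a term for sequencing run, inferred from sample-sheet numbers because the labels name none. On simulated counts of 18137 genes with 200 set to a log2 FC of 2, 100% were called for Ibr against DMSO at 48 h, and 2 unchanged genes were. The 200 averaged 1 CPM or more and no passage effect or uneven library was simulated. Smaller changes and genes of lower level were thus not covered. Symbols came from identifier columns of the study's supplementary tables, whose values were not used.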

Additional observations from a re-analysis of the deposited data

Results flagged for a closer look

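The change with Ibr differed between incubation times, as tested by the difference of the 2 effects with edgeR's quasi-likelihood test (Benjamini-Hochberg adjusted p of at most 0.05 and a difference above 1 on the log2 scale). Between 24 h and 48 h this held for 44 genes and between 48 h and 72 h for 362, where Ibr at 72 h has 2 libraries.

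Of the genes named, 4 differed between 24 h and 48 h, all lower at 48 h. The difference was -2.0 for P4HA2 and -2.97 for ENSCAFG00000007609. A4GALT, which makes the glycolipid Gb3, differed by -1.27, from 0.71 at 24 h to -0.55 at 48 h, and PLXNB2, a semaphorin receptor, by -1.04, from 1.27 to 0.23. Neither A4GALT nor PLXNB2 passed at 48 h itself.

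Between 48 h and 72 h the difference was positive for NEBL (1.20), P4HA2 (1.61), AKAP12 (1.47), GRTP1 (3.33), HIGD1B (2.07), ENSCAFG00000007609 (1.82) and ENSCAFG00000015708 (2.24). It was negative for FBXO32 (-1.93), TMEM71 (-1.19), PSAT1 (-1.43), PLXNB2 (-1.03) and TRIB1 (-1.80). Such a difference can come from either group, and which group moved varied by gene. From 48 h to 72 h the mean of PSAT1 went from 233 to 642 CPM with DMSO and from 178 to 182 CPM with Ibr. That of AKAP12 went from 9.20 to 7.95 CPM with DMSO and from 3.03 to 6.96 CPM with Ibr. HIGD1B stood at -0.38 at 48 h and 1.69 at 72 h, and TRIB1, a pseudokinase, at -0.23 and -2.04. Neither passed at 48 h.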

How the results depend on the processing

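Ibr against DMSO at 48 h gave 374 DEGs, and 337 to 389 under 8 alternatives (DESeq2 337, 325 of them shared), 370 with a term for sequencing run, inferred from sample-sheet numbers and added after seeing the data, and 278 to 360 with 1 replicate left out (114 to 160 higher, 147 to 200 lower). A test against the size limit itself (glmTreat) called 51, all shared, of which 33.3% were higher against 44.4% before; it called 0 against 44 for 48 h less 24 h, 3 against 362 for 72 h less 48 h and 6 against 62 for Ibr against AS. For the same 3 comparisons 1425, 3887 and 1885 genes had an unadjusted p under 0.05. Without the replicate block the counts were 353 (157 higher, 196 lower), 32, 337 and 43. The difference of 48 h less 24 h counted 71 with the compared groups alone and 11 to 32 with 1 replicate left out (11 without replicate 3). That of 72 h less 48 h counted 204 to 387 (207 without replicate 1, 204 without replicate 2), and Ibr against AS 36 to 60 (36 without replicate 3). Of 778 combinations of 65 genes and 12 alternatives, 710 kept direction and side of the limit, 58 lost the call, 10 gained one and 0 reversed. Among these 65 genes, fitting the compared groups alone ended 1 call and added 7. These were A4GALT, BCLAF1, DLA88, INPP5D, MYC (adjusted p = 0.00222), SLA and TRIB1. This fit also added many calls among other members of the lists. Of the 25 cell cycle genes 4 rose and 7 fell there, and of the 14 mitochondrial genes 3 rose and 5 fell. Thinning ended the calls of LRP1, TPH2, TFEB and 1 identifier without symbol, and DESeq2 those of LRP1 and the same identifier. All 36 libraries ended the calls of ME2, LTA, RMI1, NCF4 and TFEB, and no filter those and that of RAC2. Both added PRR5, TSPO and PWP1 from the lists, and thinning added these and PTK2. DESeq2 added further members of the lists, such as EZR, NDUFA6 and HMOX1. Leaving out the block ended the calls of EGR1, LRP1, NCF4 and TNFAIP3 and, among other members of the lists, LTA, IGF2R and RMI1, and added NDUFA6 (adjusted p = 0.0393). The cause was not tested for any of these changes. Genes near the 3-count floor are limited by depth.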

Other observations

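The 24 unevenly raised DEGs were sought after the values had been seen. A spread of over 4-fold was also found among the DMSO libraries of 4 higher DEGs and among the Ibr libraries of 9 lower DEGs. With replicate 1 left out 14 of the 24 were still DEGs, and with replicate 2 left out all 24 were. In counts, the most abundant of them, ENSCAFG00000041995, had 70962 reads in Ibr 48 h replicate 3 and 1016 in replicate 2.

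The summed level of the 5 myeloid markers tested, led by NCF4 and LYZ, was 340 to 365 CPM with Ibr at 24 h against 276 to 291 CPM with DMSO, and 328 and 349 CPM at 72 h against 205 to 238 CPM. These sums did not overlap between the groups at any of the 3 times, but neither of the 2 leading genes was apart at all of them. NCF4 overlapped at 24 h, with 169 to 191 CPM with DMSO and 187 to 188 CPM with Ibr. LYZ overlapped at 72 h, with 88.0 to 115 CPM with DMSO and 112 and 125 CPM with Ibr. HMOX1, heme oxygenase, had a log2 FC of 1.14 at 48 h and KLF10 of 0.96, and neither passed (edgeR, adjusted p = 0.0738 and 0.104). HMOX1 was a DEG with DESeq2 (0.00759), with another filter on low counts (0.0331) and in a fit of the compared groups alone (6.83e-10), and KLF10 passed with DESeq2 (0.0406).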
